A study of Mus musculus with 34 samples.

Results

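Levels of 8 transcription factor genes of the periocular mesenchyme, Foxc1, Foxc2, Twist1, Twist2, Prrx1, Prrx2, Lmx1b and Tfap2b, were followed in the mouse cornea from the embryo to old age. They were chosen by name, as every probe set annotated with exactly 1 gene symbol equal to one of these 8, and each gene had 1 such probe set among 19938 distinct symbols on the array. All 8 passed the filter on low values, which left 12998 genes for the tests. Foxc2 and Prrx2 passed it on few arrays, lying above the array median on 12 and 8 of the 32 whole-cornea arrays, against 19 for Twist2, 26 for Twist1, 28 for Prrx1, 30 for Foxc1 and 32 for Lmx1b and Tfap2b.

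The periocular mesenchyme consists of cells, mostly of neural crest origin, that migrate between the surface ectoderm and the optic cup. These cells give rise to the keratocytes of the corneal stroma, the corneal endothelium, the stroma of the iris and ciliary body and the tissue that drains the aqueous humour. The 8 genes encode sequence-specific transcription factors of 5 families. Foxc1 and Foxc2 are forkhead factors needed in the anterior segment. Twist1 and Twist2 are basic helix-loop-helix factors that hold mesenchyme undifferentiated and pair with the E proteins. Prrx1 and Prrx2 are paired-related homeodomain factors of limb and craniofacial mesenchyme. Lmx1b is a LIM homeodomain factor needed for the trabecular meshwork and the stroma of the anterior eye. Tfap2b is an AP-2 factor of the neural crest.

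Whole corneas of wild-type CB6 mice, dissected from the globe, were measured at 12 ages. There were 3 arrays for each embryonic day (E14.5, E15.5 and E17.5), each postnatal day (P3, P7, P14 and P28) and 2 months. The 4 later ages, 6 months, 1 year, 18 months and 2 years, had 2 arrays each. A further array held epithelium of P28 lifted off with dispase, and another held stroma of P7 taken by laser capture. Whether replicates were separate animals is not stated in the labels, so the spread behind the p-values is that between these arrays and may be technical. The values are probe set intensities on a linear scale. Differences are given on the scale of log2(intensity + 16), which understates changes of low genes, and levels of different genes are not set against each other, since probe sets differ in brightness.

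The corneal epithelium markers Krt12, Krt5, Krt14, Pax6, Aldh3a1 and Upk1b had a median level of log2 13.31 to 13.42 on the P28 arrays and 7.92 to 9.64 on those of E14.5. Some arrays also held RNA of neighbouring tissue. A list of 17 lens genes, 16 with a probe set, lay at least 2 log2 units over its 32-array median on replicates 2 and 3 of E14.5, replicate 2 of P14, replicate 1 of 2 months and replicate 2 of 6 months. Skeletal muscle genes did so on replicates 1 and 3 of E17.5, retina genes on replicate 1 of 6 months, pigment cell genes on replicate 3 of E17.5 and embryonic blood genes on all arrays of E14.5. The arrays also fell into an earlier and a later set by age, although no label names a batch: 8 unnamed probe sets read 1501 or more on each of the 18 arrays up to P14 and 12.8 or less on each of the 14 arrays from P28 on. Between P14 and P28 a change with age therefore cannot be told apart from one between these sets. Whether the arrays within a set were processed together was not tested. In whole corneas, fewer cells of a type and less RNA per cell cannot be told apart.

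Of the 8 genes, 7 were called over the 12 ages. The exception was Lmx1b, whose age means spanned 0.52 log2 units (adjusted p = 0.373, limma's moderated F-test over the 12 ages). A gene was called there at an adjusted p under 0.05 with age means at least 1 log2 unit apart, and 40.6% of all genes tested were called. The median range was 2.81 log2 units over the 8 genes and 0.87 over all genes tested. Prrx1 had the widest range of the 8, 5.62 log2 units (adjusted p = 3.0e-08), from E15.5 down to 18 months. The range was 5.19 for Twist2 (adjusted p = 5.9e-09) and 4.18 for Twist1 (adjusted p = 3.4e-08). It was 2.93 for Foxc2, 2.68 for Tfap2b, 2.21 for Foxc1 and 1.72 for Prrx2. This test spans both sets of arrays, and Tfap2b and Prrx2 were called within neither set alone. Of the 8, 5 had their highest age mean at E15.5, namely Twist1, Twist2, Prrx1, Prrx2 and Tfap2b, and Foxc2 had it at E17.5. Foxc1 had its lowest mean at E14.5 and its highest at 18 months. From P28 on, however, its means spanned only 0.38 log2 units (adjusted p = 0.93, F-test over those ages). Over the 12 ages the range of Foxc1 was 1.49 log2 units without replicate 3 of E14.5 and 1.06 without the lens-rich arrays.

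**Figure D1:**
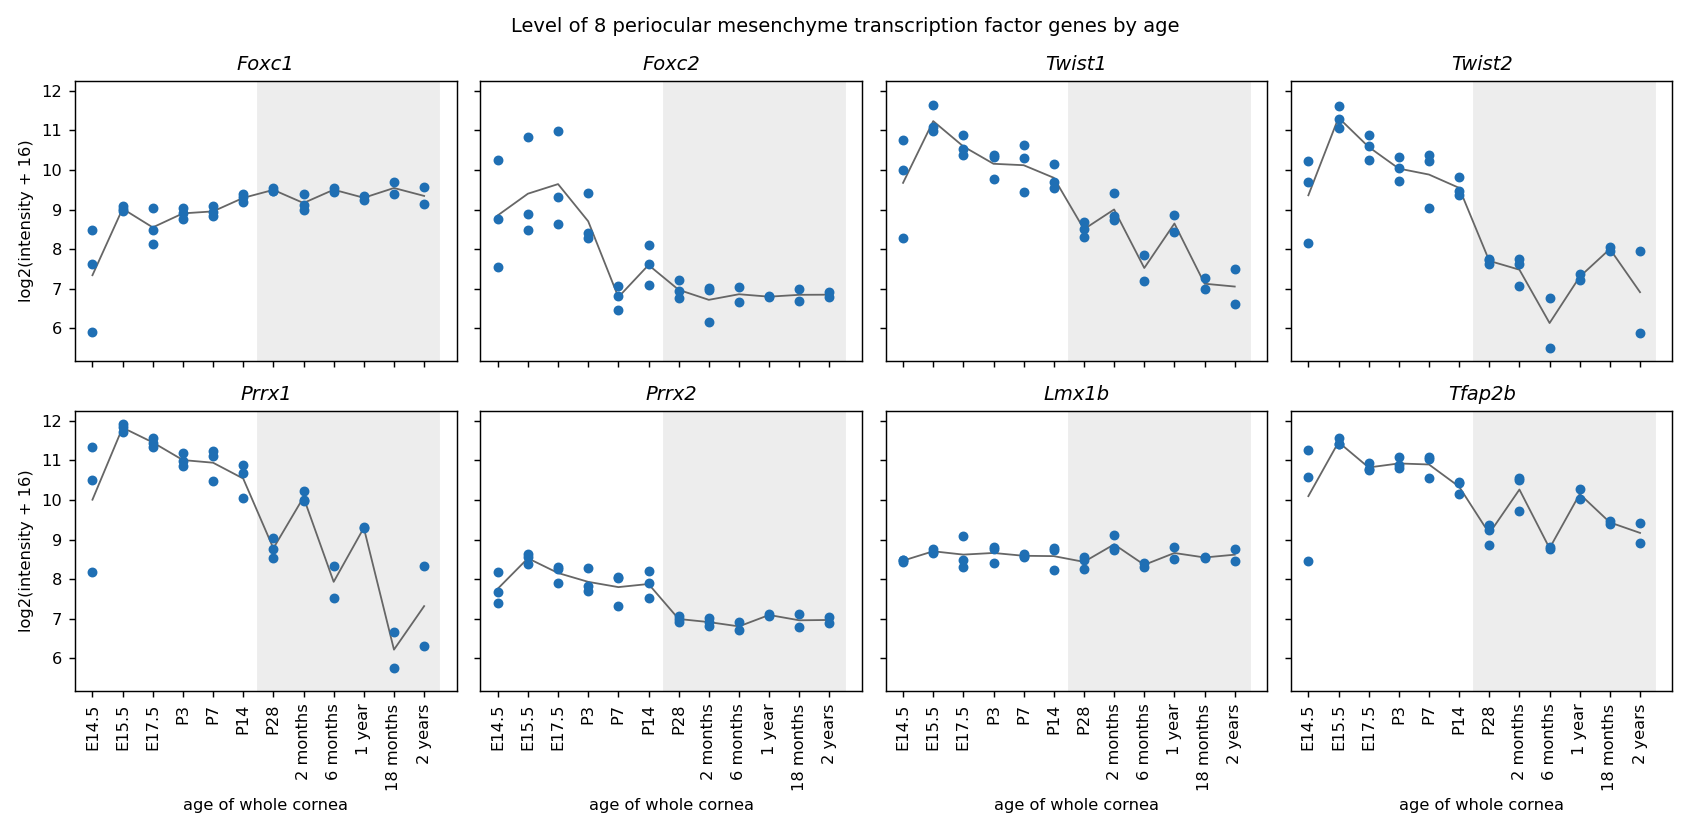
Level of each of the 8 genes, as log2(intensity + 16), on the 32 whole-cornea arrays (points) against age, with a line through the age means; the grey area marks the ages of the later set of arrays, P28 to 2 years. The means of Twist1, Twist2, Prrx1 and Tfap2b peak at E15.5, and all their arrays from P28 on lie under those of E15.5. Foxc1 lies lowest at E14.5, and the means of Lmx1b stay within 0.52 log2 units.

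Within the earlier set, from E14.5 to P14, 5 of the 8 genes were called against 19.6% of all genes: Foxc1, Foxc2, Twist1, Twist2 and Prrx1. Tfap2b missed the threshold with an adjusted p of 0.0501 and a range of 1.37 log2 units, and Prrx2 passed the p but not the minimum range (0.77 log2 units, adjusted p = 0.0176). Without replicate 3 of E15.5 the calls of Twist1 (adjusted p = 0.0959) and Prrx1 (0.0884) were lost, which left 3. The Prrx1 call over these ages was lost in 23 of the 46 settings tried, quantile normalization (adjusted p = 0.0537) and an offset of 1 (0.0573) among them. The Foxc1 call was lost without the lens-rich arrays, with a range of 0.86 log2 units. Within the later set, from P28 to 2 years, Twist1 and Prrx1 were called, 2 of 8 against 6.77% of all genes. Their ranges were 1.95 (adjusted p = 0.00792) and 3.85 log2 units (adjusted p = 5.5e-04). The count rose to 4, with Twist2 and Tfap2b, without replicate 3 of E14.5, whose spread enters the error shared by all ages.

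The sequences upstream of the genes are shown for the 3 genes with the widest ranges, Prrx1, Twist2 and Twist1, and for Foxc1, whose lowest age mean was at E14.5. They are the 250 bases before and 50 bases from an annotated start, 5′ to 3′ on the strand of the gene. The source was RefSeq on GRCm38.p6, and every match to the motifs searched is in capitals.
Foxc1 (chr13:31806396-31806695, plus strand): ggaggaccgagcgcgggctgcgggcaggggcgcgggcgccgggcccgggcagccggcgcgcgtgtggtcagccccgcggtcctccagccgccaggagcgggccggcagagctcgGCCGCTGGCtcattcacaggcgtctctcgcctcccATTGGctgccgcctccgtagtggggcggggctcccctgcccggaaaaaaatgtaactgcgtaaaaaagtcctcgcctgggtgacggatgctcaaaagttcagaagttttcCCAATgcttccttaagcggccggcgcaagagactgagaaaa
Twist1 (chr12:33957421-33957720, plus strand): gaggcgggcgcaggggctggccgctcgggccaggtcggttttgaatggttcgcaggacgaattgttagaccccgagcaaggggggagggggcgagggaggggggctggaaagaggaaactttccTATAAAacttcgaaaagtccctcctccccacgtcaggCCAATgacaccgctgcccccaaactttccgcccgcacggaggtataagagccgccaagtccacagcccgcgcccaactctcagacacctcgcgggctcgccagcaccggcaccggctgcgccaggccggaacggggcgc
Twist2 (chr1:91801211-91801510, plus strand): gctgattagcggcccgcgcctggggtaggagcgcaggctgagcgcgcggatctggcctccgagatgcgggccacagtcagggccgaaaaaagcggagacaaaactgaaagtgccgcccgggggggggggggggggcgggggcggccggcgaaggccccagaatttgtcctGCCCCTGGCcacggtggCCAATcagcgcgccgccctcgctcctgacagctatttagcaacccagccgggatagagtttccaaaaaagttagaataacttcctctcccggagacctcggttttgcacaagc
Prrx1 (chr1:163313601-163313900, minus strand): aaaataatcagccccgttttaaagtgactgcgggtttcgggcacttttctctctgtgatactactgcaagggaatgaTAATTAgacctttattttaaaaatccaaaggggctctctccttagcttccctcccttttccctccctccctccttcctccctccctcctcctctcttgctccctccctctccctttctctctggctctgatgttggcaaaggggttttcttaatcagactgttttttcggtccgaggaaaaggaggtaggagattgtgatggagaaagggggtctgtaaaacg
Of the 8 genes, 7 matched an entry in the table of 32851 promoters, and Foxc2 did not. The promoters of Prrx2, Foxc1, Twist1, Lmx1b and Twist2 were rich in G and C, at 70.3%, 67.3%, 66.0%, 65.7% and 64.7%, against a median of 52.7% over all promoters. Those of Prrx1 and Tfap2b held 47.7% and 48.3%. The windows of Prrx1, Tfap2b and Prrx2 lie inside the annotated gene, so their starts are internal to it. Their 5′ ends are at 163313900, 19211804 and 30845117, against gene ends at 163315145, 19208908 and 30845064. The dinucleotide CG occurred 32 times in the promoter of Foxc1, 28 times in that of Prrx2, 27 times in that of Twist1, 25 times in that of Twist2 and 24 times in that of Lmx1b, against a median of 7, while Tfap2b had 8 and Prrx1 had 6.

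In all, 6 motifs were searched on both strands, and no match overlapped another. TAATTA, a core that paired-like and LIM homeodomain proteins bind, occurred in 5.3% of all promoters. Among the 7, it occurred in that of Prrx1 alone, at bases -173 to -168 from its internal start. GCCNNNGGC, the AP-2 site, occurred in 16.6% of all promoters and in those of Foxc1, Twist2 and Prrx2. CCAAT occurred in 37.4% and in those of Foxc1, Twist1, Twist2 and Lmx1b, and TATAAA in 13.6% and in that of Twist1, at bases -126 to -121. CANNTG, the E box that Twist dimers bind, occurred in 72.3% of all promoters and in those of Lmx1b and Tfap2b. The forkhead core TGTTTA occurred in 13.4% of all promoters and in 0 of the 7. These matches describe letters in a window and not bound sites.

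Around the time the stroma forms, 5 of the 8 genes were higher at E15.5 than at E14.5: Foxc1, Twist1, Twist2, Prrx1 and Tfap2b, by 2.58-fold to 3.9-fold. A difference between ages was called at an adjusted p under 0.05 where it was also 1 log2 unit or more in either direction, and 7.35% of all genes were called higher in this comparison. The median difference was 1.46 over the 8 genes and 0.01 over all genes tested. Only Twist2 was called without replicate 3 of E14.5. Without the lens-rich arrays, which left 1 array at E14.5, no call held, and the differences of the 5 genes lay between 0.21 (Tfap2b, adjusted p = 0.547) and 1.10 (Twist2, adjusted p = 0.146) on the log2 scale.

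Foxc1 read 342, 181 and 44.1 on replicates 1, 2 and 3 of E14.5, and 498, 528 and 484 at E15.5. The log2 difference was 1.68 ± 0.35 (SE, adjusted p = 5.4e-04), and 0.97 (adjusted p = 0.00148) without replicate 3 of E14.5. All E15.5 arrays lay above all E14.5 arrays. Foxc2, its relative with roles in lymphatic and venous vessels, read 1211, 415 and 170.3 at E14.5 and 1794, 458 and 344 at E15.5. These groups overlapped, and the difference of 0.55 ± 0.58 (SE, adjusted p = 0.476) was not called.

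Twist1 read 1710, 1006 and 293 at E14.5 and 2153, 2011 and 3173 at E15.5, a log2 difference of 1.56 ± 0.41 (SE, adjusted p = 0.00427). Twist2 read 1178, 815 and 269.8 at E14.5 and 2119, 2505 and 3105 at E15.5, a difference of 1.96 ± 0.45 (SE, adjusted p = 0.00149). Neither gene's arrays overlapped between the ages. Without replicate 3 of E14.5 the differences were 0.86 for Twist1 (adjusted p = 0.0517) and 1.36 for Twist2 (adjusted p = 0.0196).

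Prrx1 read 2558, 1447 and 273 at E14.5 and 3662, 3350 and 3882 at E15.5, a log2 difference of 1.82 ± 0.51 (SE, adjusted p = 0.00688), and 0.91 (adjusted p = 0.0817) without replicate 3. Prrx2 read 276, 189 and 152 and then 382, 316 and 361, a difference of 0.77 ± 0.20 (SE, adjusted p = 0.00435), which fell short of 1 log2 unit. Tfap2b read 2424, 1506 and 338 and then 2706, 2709 and 3018, a difference of 1.37 ± 0.39 (SE, adjusted p = 0.00797), and 0.55 (adjusted p = 0.0714) without replicate 3. Lmx1b read 342, 329 and 342 and then 393, 421 and 388, with a difference of 0.24 ± 0.17 (SE, adjusted p = 0.276). The levels of Prrx1, Prrx2, Lmx1b and Tfap2b did not overlap between the ages, although Lmx1b and Prrx2 were not called. The share of all genes whose arrays did not overlap is not given, in this or any later comparison. A lack of overlap therefore only describes the arrays.

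On the E14.5 arrays 7 of the 8 genes, all but Lmx1b, were highest on replicate 1 and lowest on replicate 3. The median of 12 keratocyte products (Kera, Lum, Dcn, Ogn, Col1a1, Col1a2, Col3a1, Col5a1, Col5a2, Ptgds, Chst5 and B3gnt7) lay in the same order, at log2 9.51, 9.06 and 8.04, and then at 11.55, 11.39 and 11.71 at E15.5. The lens median was 8.77, 12.24 and 12.65 on those E14.5 arrays and 7.22 to 7.67 at E15.5, and the embryonic blood median was 12.45 to 13.12 and 7.08 to 8.05. Kera, the corneal keratan sulfate proteoglycan keratocan, read 1041, 233 and 69.6 on the E14.5 arrays. The part of these tissues in the differences was not tested.

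From E15.5 to P14, a period within the earlier set of arrays that spans the closure of the eyelids, 4 of the 8 genes were lower at the later age: Foxc2, Twist1, Twist2 and Tfap2b. In this comparison 1.98% of all genes were called lower, and the median difference was -1.21 over the 8 genes and -0.03 over all genes. It shares the E15.5 arrays with the previous comparison, so a high level there moves both.

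Twist1 read 1462, 1865 and 1316 at E17.5, 1268, 1313 and 854 at P3, 1561, 682 and 1238 at P7 and 1128, 728 and 819.9 at P14. Its difference from E15.5 to P14 was -1.43 ± 0.41 (SE, adjusted p = 0.0152). Twist2 read 1554, 1861 and 1208 at E17.5, 1035, 1276 and 835 at P3, 1183, 512 and 1317 at P7 and 882, 641 and 693 at P14, a difference of -1.77 ± 0.45 (SE, adjusted p = 0.00714). On replicate 2 of P7 both genes were the lowest of their age, as were Prrx1, Prrx2 and Tfap2b. At E17.5 against E15.5, at P3 against E17.5 and at P14 against P7, limma called 0 of the 8 genes, and 0 had an unadjusted p under 0.05. Few genes of any kind were called in these steps, namely 0.392% higher and 0.177% lower at E17.5, 0.785% and 1.11% at P3 and 0% in either direction at P14. At an unadjusted p under 0.05, 703 of the 12998 genes were higher and 1246 lower at E17.5. These counts were 1561 and 2203 at P3 and 328 and 491 at P14.

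Prrx1 read 2588, 3027 and 2788 at E17.5, 2012, 2323 and 1832 at P3, 2418, 1411 and 2179 at P7 and 1885, 1621 and 1049 at P14. The difference of -1.29 ± 0.51 (SE, adjusted p = 0.0789) was not called, although the arrays of E15.5 and P14 did not overlap. It passed without the 5 lens-rich arrays (-1.35, adjusted p = 0.0213). Prrx2 read 222, 292 and 299 at E17.5, 293, 211 and 190.2 at P3, 242, 144 and 249 at P7 and 278, 222 and 169 at P14, a difference of -0.65 ± 0.20 (SE, adjusted p = 0.025), again under 1 log2 unit.

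Tfap2b read 1731, 1945 and 1715 at E17.5, 1771, 2145 and 1885 at P3, 2177, 1485 and 2095 at P7 and 1360, 1376 and 1114 at P14, a difference of -1.13 ± 0.39 (SE, adjusted p = 0.0434). Leaving out any 1 of the E15.5 or P14 arrays ended this call. Lmx1b read 342, 524 and 298 at E17.5, 419, 429 and 326 at P3, 369, 359 and 379 at P7 and 282, 427 and 409 at P14, with a difference of -0.12 ± 0.17 (SE, adjusted p = 0.699).

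Foxc1 read 339.9, 265 and 508 at E17.5, 511, 467 and 414 at P3, 471, 532 and 439.5 at P7 and 618, 566 and 653 at P14. Its difference from E15.5 to P14 was 0.27 ± 0.35 (SE, adjusted p = 0.671), not called, although every P14 array lay above every E15.5 array. The corneal epithelium median was 11.24 to 12.09 on the E15.5 arrays and 12.52 to 12.91 on the P14 arrays.

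Foxc2 varied most of the 8 between arrays of one age, with a median SD over the 12 ages of 0.39 log2 units, against 0.14 to 0.35 for the others. It read 622, 382 and 1996 at E17.5 and 664, 297 and 324 at P3, then 118, 96.8 and 72.6 at P7 and 257, 180.3 and 119 at P14. The difference from E15.5 to P14 was -1.80 ± 0.58 (SE, adjusted p = 0.0295), and -1.09 (adjusted p = 0.215) without replicate 1 of E15.5. The step from P3 to P7 was the only one between neighbouring ages called for Foxc2, at -1.92 ± 0.58 (SE, adjusted p = 0.0332), where 0.639% of all genes were called lower. Every P7 array lay under every P3 array, and leaving out any 1 of these 6 arrays ended the call.

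The 2 arrays with the highest Foxc2, replicate 1 of E15.5 and replicate 3 of E17.5, were the highest of their age in the pigment cell median, at 9.05 and 9.98, and in the median of 9 blood vessel genes, at 8.32 and 8.49. On these arrays Emcn, a sialomucin of capillary and venous endothelium, read 1056 and 3078, and Dct, the dopachrome tautomerase of pigment cells, read 1809 and 3666. The pigment cell median of 8 genes was 8.72 to 9.02 on the P3 arrays and 7.47 to 7.83 on the P7 arrays, and the vessel median 7.74 to 8.36 and 7.44 to 7.54. The part of iris or vessels in the Foxc2 values was not tested.

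The counts in this comparison were sensitive to single arrays. They were 2 of 8 without replicate 1 of E15.5 (Twist1 and Twist2), 2 without replicate 3 of E15.5 (Foxc2 and Twist2) and 1 without replicate 2 or replicate 3 of P14, in both cases Twist2. The Twist2 difference passed in every array left out in turn.

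Between P14 and P28, the step after the eyelids open, 4 of the 8 genes were lower at the later age: Twist1, Twist2, Prrx1 and Tfap2b, by 2.27-fold to 3.6-fold. In this step 3.5% of all genes were called lower, and the median difference was -1.04 over the 8 genes and 0.11 over all genes. For this step, the effects of age and of array set cannot be told apart.

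At P28 Twist1 read 395, 301 and 349.5, a difference from P14 of -1.30 ± 0.41 (SE, adjusted p = 0.0169). Twist2 read 200.4, 182 and 194, a difference of -1.85 ± 0.45 (SE, adjusted p = 0.00306). Prrx1 read 420.1, 355 and 506, a difference of -1.76 ± 0.51 (SE, adjusted p = 0.00981). Every P28 array of these 3 genes lay under every P14 array. Tfap2b read 643, 447 and 589, a difference of -1.18 ± 0.39 (SE, adjusted p = 0.0218), and Prrx2 read 106, 111 and 117, a difference of -0.89 ± 0.20 (SE, adjusted p = 0.00175) that was under 1 log2 unit. Neither overlapped with P14.

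Foxc1 read 734, 693 and 693 at P28, above all P14 arrays, with a difference of 0.20 ± 0.35 (SE, adjusted p = 0.696) that was not called and turned to -0.01 after quantile normalization. Foxc2 read 133, 106 and 92.5 and Lmx1b read 288, 342 and 364, both overlapping with P14. Without replicate 2 of P28 the count fell to 2, as the calls of Twist1 (adjusted p = 0.0594) and Tfap2b (0.0859) were lost. The Twist1 call was also lost without replicate 1 of P14 (adjusted p = 0.0596), and the Tfap2b call without replicate 2 of P14 (0.0689). The keratocyte median lay at 10.71 to 11.08 on the P14 arrays and 9.16 to 9.56 on the P28 arrays, and the corneal epithelium median at 12.52 to 12.91 and 13.31 to 13.42. Their part in the differences was not tested.

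**Figure D2:**
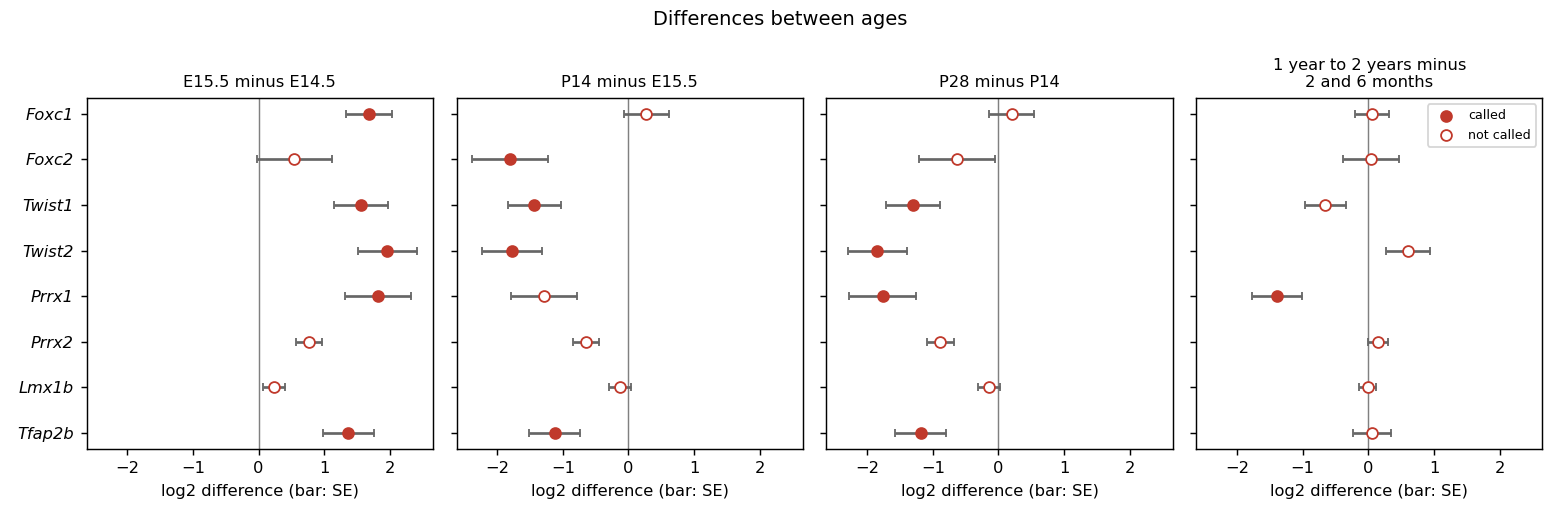
Log2 difference of each of the 8 genes in 4 comparisons of whole-cornea arrays, with the standard error of the limma fit as a bar; filled points were called (adjusted p under 0.05 and at least 1 log2 unit). In the first panel 5 genes lie to the right of 0 and are filled, in the second and in the panel of P28 against P14 4 are filled on the left, and in the ageing panel Prrx1 is the only filled point.

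In the adult, from P28 on, Prrx1 had the widest range of the 8. It read 987, 1177 and 1016 at 2 months, 167 and 308 at 6 months, 618 and 606 at 1 year, 38.1 and 85.8 at 18 months and 62.8 and 306 at 2 years. The step from 2 to 6 months was -2.14 ± 0.57 (SE, adjusted p = 0.0398), in which 1.04% of all genes were called lower. The step from 1 year to 18 months was -3.08 ± 0.62 (SE, adjusted p = 0.0105), or 8.46-fold, in which 0.762% of all genes were called lower. In both steps Prrx1 was the only gene of the 8 that was called, and its arrays did not overlap. The second call was lost without replicate 1 or 2 of 1 year or replicate 1 of 18 months (adjusted p = 0.0924, 0.0992 and 0.205), with 1 array left on that side. The first was lost without replicate 2 or 3 of 2 months or either array of 6 months, and after quantile normalization (adjusted p = 0.0795). It was also lost when the 2-month arrays with identifiers 1A and 1B, which may share an animal, were averaged (adjusted p = 0.122).

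Twist1 was likewise highest at 2 months and at 1 year, with 441, 669.5 and 413 at 2 months, 129.5 and 216 at 6 months, 448 and 329.8 at 1 year, 137 and 111 at 18 months and 82.1 and 163 at 2 years. From 6 months to 1 year limma called 0 of the 8 genes, with 4 at an unadjusted p under 0.05, and from 18 months to 2 years it called 0, with 0 at an unadjusted p under 0.05. Of all genes, 0.146% were called higher and 0.0615% lower in the first of these steps, and 0.238% and 0.208% in the second. At an unadjusted p under 0.05, 624 of the 12998 genes were higher and 578 lower in the first step. In the second step these counts were 496 and 573. The Twist1 step from 2 to 6 months was -1.48 ± 0.46 (SE, adjusted p = 0.0748) and that from 1 year to 18 months -1.52 ± 0.50 (SE, adjusted p = 0.158). Twist2 read 118, 198 and 182 at 2 months, 29.1 and 92.4 at 6 months, 149.5 and 134 at 1 year, 248 and 232 at 18 months and 229 and 42.9 at 2 years. Its 18-month arrays lay above those of 1 year, where Twist1 and Prrx1 lay below, and this difference of 0.70 ± 0.55 (SE, adjusted p = 0.708) was not called.

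Tfap2b read 823, 1499 and 1445 at 2 months, 433 and 414 at 6 months, 1021 and 1229 at 1 year, 690.5 and 660.2 at 18 months and 466 and 669.6 at 2 years. It was higher at 2 months than at P28, by 1.11 ± 0.39 (SE, adjusted p = 0.0401), in a step in which 0.615% of all genes were called higher, and it was the only gene of the 8 called there. Leaving out any 1 of the P28 arrays, or replicate 2 or 3 of 2 months, ended that call, as did averaging 1A and 1B (adjusted p = 0.137) and scaling to one median (0.0505). Prrx1 differed in the same step by 1.29 ± 0.51 (SE, adjusted p = 0.065) and did not pass. The log2 median of the corneal endothelium markers Slc4a11, Col8a1, Col8a2 and Cdh2 was 7.6 to 8.0 at P28 and 8.7 to 9.1 at 2 months. It was 7.6 to 8.1 at 6 months, 8.2 to 8.7 at 1 year, 6.9 to 7.3 at 18 months and 7.5 to 8.1 at 2 years. The part of endothelial content in the adult values of Tfap2b and Prrx1 was not tested.

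The other genes were called in none of the 5 steps from P28 on. Foxc1 read 661, 489 and 536 at 2 months, 685 and 733 at 6 months, 593 and 634 at 1 year, 661 and 807 at 18 months and 737 and 544 at 2 years. Foxc2 ranged from 55.4 to 116.5 over the 11 arrays of 2 months to 2 years and Prrx2 from 87.9 to 123.6, and both lay under the array median on each of them. Lmx1b read 411, 534 and 426 at 2 months, 324 and 301 at 6 months, 429.7 and 350.5 at 1 year, 356 and 359 at 18 months and 338 and 419.7 at 2 years. Its step from 2 to 6 months was -0.52 ± 0.19 (SE, adjusted p = 0.123).

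For ageing, the means of 1 year, 18 months and 2 years were set against those of 2 and 6 months. Prrx1 alone of the 8 was called, at -1.39 ± 0.38 (SE, adjusted p = 0.0384), or 2.62-fold lower, where 0.554% of all genes were called lower. Its arrays overlapped between the older and younger ages. The call was lost in 10 of the 11 fits that left out 1 of these arrays. Twist1 differed by -0.65 ± 0.31 (SE, adjusted p = 0.243) and Twist2 by 0.60 ± 0.34 (SE, adjusted p = 0.354), in opposite directions, and neither passed. The differences of Foxc1, Foxc2, Prrx2, Lmx1b and Tfap2b lay between -0.01 and 0.15. The keratocyte median was 9.88, 9.94 and 10.02 on the arrays of 2 months, 8.06 and 8.63 at 6 months, 9.18 and 8.87 at 1 year, 7.99 and 8.16 at 18 months and 7.61 and 8.82 at 2 years. The median of the sex-linked genes (Xist and 4 Y-linked genes, 4 of these 5 with a probe set) lay between 9.39 and 9.98 on the arrays of 1 year and 18 months and between 4.41 and 5.13 on those of 2 months, 6 months and 2 years. The part of keratocyte content or of the sex of the mice in these differences was not tested.

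**Figure D3:**
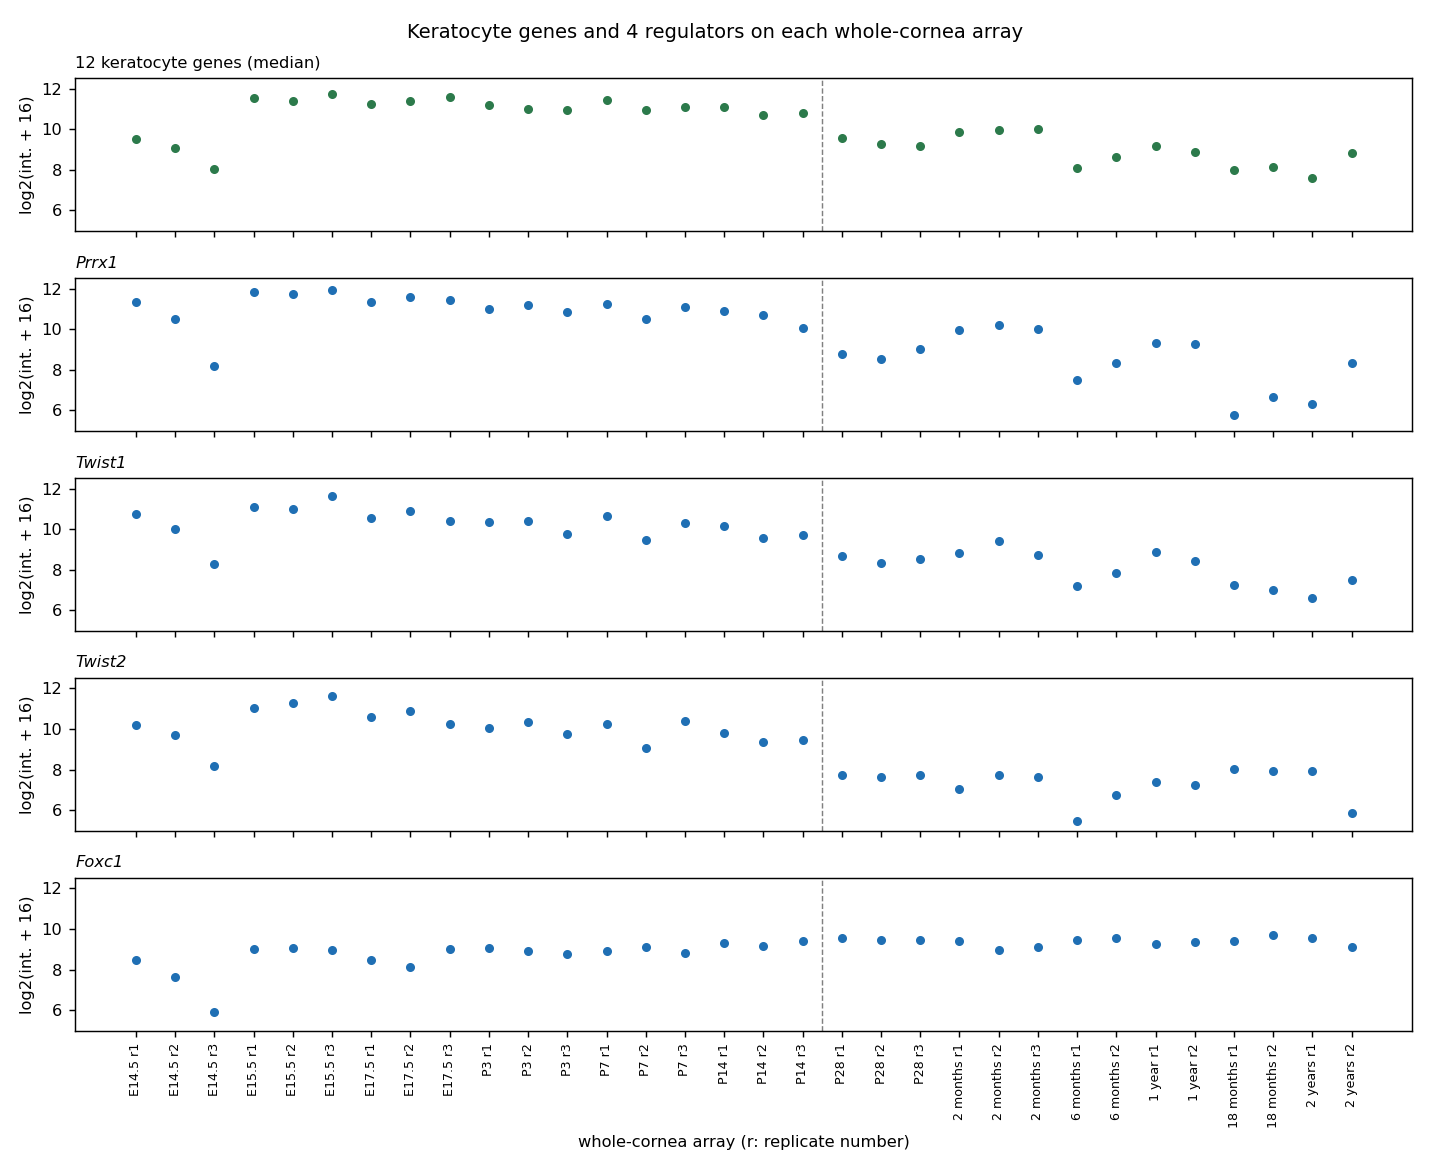
Median of 12 keratocyte products and the levels of Prrx1, Twist1, Twist2 and Foxc1, as log2(intensity + 16), on each of the 32 whole-cornea arrays, with replicates of an age side by side and a dashed line between the earlier and the later set. Prrx1 and Twist1 are low on replicate 3 of E14.5 and both arrays of 18 months, where the keratocyte median is also low. Replicates 1 and 2 of E14.5 have keratocyte medians of 9.51 and 9.06, against 9.16 to 9.56 at P28. On these 2 arrays Prrx1 and Twist1 lie above all their P28 arrays, which belong to the later set. The part of keratocyte content in these levels was not tested. On replicate 3 of E14.5 Twist2 and Foxc1 are also the lowest of their age. At 18 months Foxc1 reads 661 and 807, and Twist2 lies above its 1-year arrays.

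Across the 32 arrays, Pearson's r with the keratocyte median was 0.911 for Prrx1, 0.899 for Twist1, 0.838 for Tfap2b, 0.800 for Prrx2, 0.799 for Twist2, 0.526 for Foxc2, 0.259 for Lmx1b and -0.022 for Foxc1. Within ages, on deviations from the age means, it was 0.892 for Prrx1, 0.841 for Twist1, 0.728 for Tfap2b, 0.631 for Prrx2, 0.569 for Foxc1, 0.499 for Foxc2, 0.262 for Twist2 and -0.017 for Lmx1b. These are descriptions over arrays that share ages and tissue content, with no test.

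At 2 months against E14.5, Foxc1 was higher and Foxc2 and Twist2 were lower, 3 of the 8 genes. Of all genes, 10.3% were called higher and 6.02% lower, and the comparison crosses the 2 sets of arrays. At 2 months Foxc2 read 55.4, 109.7 and 113, under each of its E14.5 arrays, and Prrx2 read 96.4, 113 and 105. Foxc1 differed by 1.83 ± 0.35 (SE, adjusted p = 1.3e-04), Foxc2 by -2.14 ± 0.58 (SE, adjusted p = 0.00392) and Twist2 by -1.88 ± 0.45 (SE, adjusted p = 0.00144). The Foxc1 difference was 1.11 (adjusted p = 1.9e-04) without replicate 3 of E14.5, and its call ended without the lens-rich arrays (0.56, adjusted p = 0.101). Without replicate 3 of E14.5, Twist1 (-1.37, adjusted p = 0.00172) and Prrx2 (-1.02, adjusted p = 4.4e-04) passed as well, which made 5. Set against E15.5 in place of E14.5, 6 genes, all but Foxc1 and Lmx1b, were lower at 2 months, and the difference of Foxc1 was 0.14 (adjusted p = 0.764). The share of all genes called lower against E15.5 is not given. E15.5 was also the age of the highest mean of Twist1, Twist2, Prrx1, Prrx2 and Tfap2b.

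The genes resembled each other to different degrees over the 12 age means. Pearson's r was 0.974 between Twist1 and Prrx1, 0.970 between Twist2 and Prrx2, 0.918 between Twist1 and Tfap2b and 0.904 between Twist1 and Twist2. The median over the 28 pairs was 0.654, with 0.778 over the 6 ages of the earlier set and 0.212 over the 6 ages of the later one. Twist1 and Twist2 had r = 0.998 over the earlier ages and 0.246 over the later ones, while Twist1 and Prrx1 had 0.950 and 0.946. Foxc1 had a negative r with 6 of the other genes, from -0.629 with Foxc2 to -0.379 with Tfap2b, and 0.050 with Lmx1b. Over the earlier ages alone it was positive with 6, from 0.335 with Prrx2 to 0.743 with Lmx1b, and -0.338 with Foxc2.

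Among all genes tested, those with the age profile most like Twist1 were Npr2 (r = 0.992), Igfbp4 (0.989) and Tcf4 (0.988), and those most like Prrx1 were Adamtsl1 (0.989), Peak1 (0.986) and Rhoj (0.977). The profiles most like Twist2 were those of Pgghg (0.983), Zfp9 (0.981) and Loxl3 (0.981), and those most like Prrx2 were Lrrc17 (0.987), Pth1r (0.985) and Renbp (0.981). Tfap2b was most like Cpne2 (0.960), Col4a2 (0.959) and Wtip (0.957), and Foxc2 like Atf6b (0.971), Csrnp2 (0.966) and Flnc (0.963). Foxc1 was most like Dsc2 (0.987), a desmosomal cadherin, Upk1b (0.986), a uroplakin of the corneal epithelium, and Anxa1 (0.986), an annexin. Lmx1b was less like any gene, with Lrrn2 (0.903), Iqsec2 (0.852) and Col23a1 (0.851) at the head. These values are Pearson's r over 12 age means and carry no test.

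The genes that act with these factors were taken from lists by role, and their counts over the 12 ages stand against the 40.6% of all genes. Of the E proteins and Id proteins, the partners and inhibitors of the Twist factors, 5 of 7 were called over the 12 ages. Tcf4, an E protein, was lower at P14 than at E15.5 (-1.41 ± 0.21 SE, adjusted p = 4.2e-05) and lower at P28 than at P14 (-1.01 ± 0.21 SE, adjusted p = 8.0e-04), the same directions as Twist1 and Twist2. Id2, an inhibitor, was higher at P28 than at P14 (1.42 ± 0.29 SE, adjusted p = 6.6e-04), and Id3 was lower at 2 months than at E14.5 (-1.08 ± 0.30 SE, adjusted p = 0.00466). Of 7 cofactors of LIM homeodomain proteins, 3 were called over the 12 ages, while Lmx1b was not. Ldb2, which bridges such proteins, was higher at E15.5 than at E14.5 (1.09 ± 0.23 SE, adjusted p = 7.0e-04) and lower at P14 than at E15.5 (-2.52 ± 0.23 SE, adjusted p = 4.4e-08), and Lmo4 was higher at 2 months than at E14.5 (1.13 ± 0.30 SE, adjusted p = 0.00357).

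Of 7 genes of the AP-2 family and its regulators, 6 were tested and 3 were called over the 12 ages. Tfap2a and Tfap2c, the AP-2 factors of surface ectoderm, were higher at 2 months than at E14.5, by 1.45 ± 0.35 (SE, adjusted p = 0.00146) and 1.51 ± 0.15 (SE, adjusted p = 1.2e-08), where Tfap2b differed by 0.17 ± 0.39 (SE, adjusted p = 0.754). Of further regulators of this mesenchyme and of epithelium to mesenchyme transition, 11 were tested. Msx1, Alx1, Alx4, Pax3, Foxd3 and Tbx18 lay under the filter. Of the 11 tested, 5 were called over the 12 ages. Zeb1 and Zeb2, repressors of epithelial genes, were lower at P14 than at E15.5 (-1.23 ± 0.38 SE, adjusted p = 0.0239, and -1.26 ± 0.23 SE, adjusted p = 4.7e-04), and Zeb2 was lower again at P28 than at P14 (-1.68 ± 0.23 SE, adjusted p = 1.3e-05). Zeb1 was also lower with ageing (-1.11 ± 0.28 SE, adjusted p = 0.0274).

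Of 14 genes of signals that reach this mesenchyme, 13 were tested and 12 were called over the 12 ages. At E15.5 against E14.5, 5 were higher and 1 lower, where 7.35% and 3.1% of all genes were called. Dkk2, a Wnt antagonist, was higher by 2.57 ± 0.51 (SE, adjusted p = 3.9e-04), and Wnt5a by 1.95 ± 0.32 (SE, adjusted p = 4.8e-05). Aldh1a1, which makes retinoic acid, was lower (-3.01 ± 0.28 SE, adjusted p = 1.3e-08) and then higher at P14 than at E15.5 (2.29 ± 0.28 SE, adjusted p = 2.8e-06). Tgfb2, a TGF-beta needed for the corneal stroma, was lower at P14 than at E15.5 (-1.21 ± 0.18 SE, adjusted p = 3.0e-05) and at P28 than at P14 (-1.10 ± 0.18 SE, adjusted p = 6.2e-05), and Dkk2 was lower at P14 than at E15.5 (-1.57 ± 0.51 SE, adjusted p = 0.0326). Fgf10 was higher at P14 than at E15.5 (2.34 ± 0.55 SE, adjusted p = 0.00403).

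The products of the cells that the mesenchyme forms were taken as further lists. Of the 12 keratocyte products 9 were higher at E15.5 than at E14.5 (7.35% of all genes), with a median difference of 2.64. At P28, 6 were lower than at P14 (3.5% of all genes), with a median of -1.49. From E15.5 to P14, when 4 of the 8 regulators were lower, 1 keratocyte product, Col3a1, was lower (-1.37 ± 0.45 SE, adjusted p = 0.032), and the median of the 12 was -0.33. Kera read 9089, 5428 and 7158 on the P14 arrays and 7151, 6788 and 7526 on those of E15.5. Of 9 products of the corneal endothelium 8 were tested, and 7 were called over the 12 ages. At E15.5 against E14.5, 1 was higher and 1 lower (7.35% and 3.1% of all genes). At P14 against E15.5, 2 were higher and 1 lower (3.21% and 1.98% of all genes). Among the higher was the membrane transporter Slc4a11 (2.05 ± 0.29 SE, adjusted p = 2.3e-05). The lower one was the glucose transporter Slc2a1 (-1.55 ± 0.29 SE, adjusted p = 5.8e-04). At P28 against P14, 3 were lower and 0 higher (3.5% and 4.15% of all genes). With ageing, 2 were lower and 0 higher (0.554% and 0.123% of all genes). Cdh2, a cadherin of that layer, was lower in both (-1.87 ± 0.42 (SE, adjusted p = 0.00168) at P28, -1.18 ± 0.32 (SE, adjusted p = 0.0365) with ageing). No test of the difference between regulators and products was made.

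The layers were compared without a test, since each had 1 array. Of the 8 genes, 0 differed by 4-fold between the P28 epithelium and the P7 stroma, where 1.37% of 11107 genes were that much lower in the epithelium. Prrx1 read 552.5 in the epithelium and 1728 in the stroma, 3.07-fold lower. Tfap2b read 845 and 1841, and Twist1 274 and 610.4, each 2.16-fold lower. Foxc2 read 246 and 334, Twist2 317 and 384.5, Prrx2 204 and 261, and Lmx1b 427 and 556. Foxc1 was the only one of the 8 with the higher reading in the epithelium, 507.5 against 424.5.

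Both layer arrays have a higher floor than the whole-cornea arrays, at 50.8 and 54.8 against at most 1.62, so ranks on the array are given too. Prrx1 lay at percentile 74.1 of the probe sets in the epithelium and 95.9 in the stroma, and Tfap2b at 86 and 96.2. Twist1 lay at 35.7 and 76.7, Twist2 at 45.1 and 54.5, and Foxc1 at 71 and 60.4. On the stroma array Twist1 and Twist2 ranked lower than on whole cornea of P7, where they lay at 87.4 and 84.4. Foxc1 also ranked lower there than on whole cornea of P7 (71.4), while Prrx1 and Tfap2b ranked slightly higher (94.2 and 94.1 on whole cornea). On the epithelium array Prrx1, Tfap2b and Twist2 ranked higher than on whole cornea of P28 (66.3, 72.3 and 42.2). Twist1 and Foxc1 ranked lower than on whole cornea of P28 (61.2 and 77.4). Layer and age cannot be told apart in this comparison. Of the keratocyte genes, Kera and Lum lay at percentiles 8.7 and 6.1 on the epithelium array. Col1a1, Ptgds, Col5a1 and Dcn lay higher there, at 66.5, 71.4, 84.1 and 89.9. All of these lay between 93 and 99.4 on the stroma array. The corneal endothelium markers Slc4a11, Col8a1, Col8a2 and Cdh2 lay between 53.8 and 96 on the epithelium array. The stroma array also held lens RNA, with a lens median of 12.40, skeletal muscle RNA, with a median of 10.74, and Krt12, an epithelial keratin, at 2185.

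**Figure D4:**
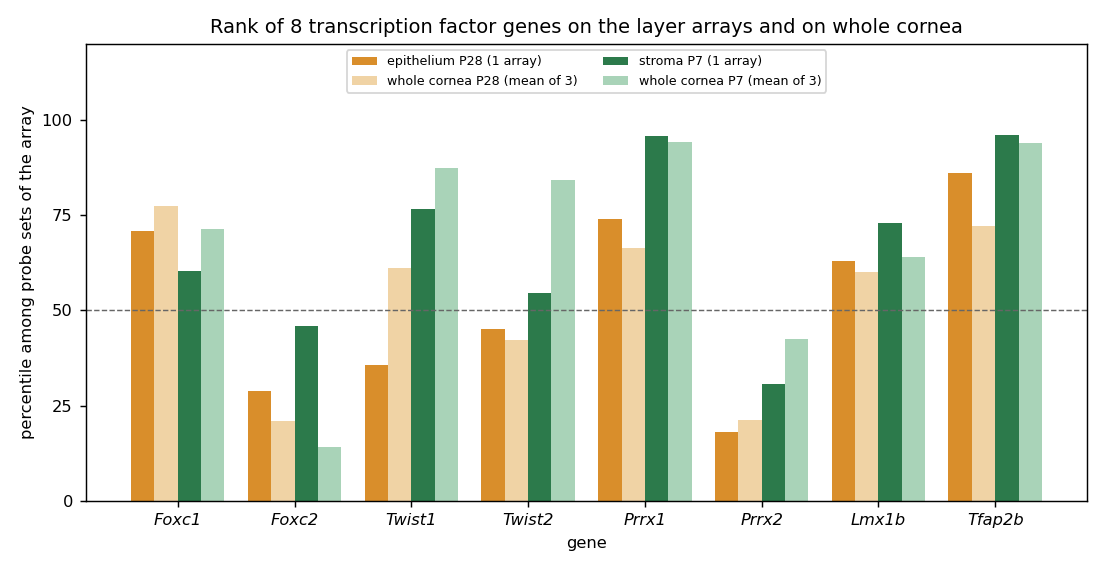
Percentile of each of the 8 genes among the probe sets of the epithelium P28 array and the stroma P7 array, beside the mean percentile on the 3 whole-cornea arrays of the same age; the dashed line marks the array median. Prrx1 and Tfap2b stand above percentile 95 on the stroma array, and Foxc1 stands higher on the epithelium array (71) than on the stroma array (60.4).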

How the data were processed

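RNA of 34 mouse samples, amplified with the NuGEN kit per the labels' protocols, was hybridised to Affymetrix gene arrays. The deposited values are linear probe set intensities from PLIER as run by the authors in Affymetrix Expression Console 1.1, per the submitters' processing notes. Any normalization between arrays is not given in the sources used here. Of 35557 probe sets, 21789 had 1 gene symbol, 1621 had several and 12147 had none.

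The deposited intensities were turned here to log2(intensity + 16), without further scaling. Genes that exceeded the array median on 2 or more of the 32 whole-cornea arrays were kept, with the brightest probe set per gene. Limma 3.58.1 in R 4.3.3 fitted 1 mean per age over all 32 arrays (20 residual and 4.1 prior degrees of freedom). Tests were two-sided, p-values were adjusted by the Benjamini-Hochberg method over the 12998 genes, and a call also needed a log2 difference of at least 1. The fit was tested on simulated data. Array-median intensities lay between 225.4 and 264.9 on whole cornea. Pearson's r between arrays of one age lay between 0.879 and 0.985; precision is set by the small number of arrays per age.

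The 8 genes and the lists were chosen with earlier results of these data known. Named were these 8, the 3 genes with the most similar age profile for each, and members of the lists by role. Alternatives changed the filter, the offset, the scaling, the weights, the ages compared and the arrays left out. The layer arrays, 1 each, entered no test.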

Additional observations from a re-analysis of the deposited data

How the results depend on the processing

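Under the settings tried, 7 of the 8 genes were called over the 12 ages in every fit. With 1 array left out in turn, the number of the 8 genes called ranged from 3 to 6 for E14.5 to P14, from 2 to 4 for P28 to 2 years, from 1 to 5 for E15.5 against E14.5, from 1 to 5 for P14 against E15.5, from 2 to 5 for P28 against P14, from 3 to 5 for 2 months against E14.5, from 0 to 1 for ageing and from 10 to 16 calls, against 13, over the 11 steps. For P28 to 2 years it was 4 with array weights and 4 without the lens-rich arrays, and for E15.5 against E14.5 it was 0 without them. For P14 against E15.5 it was 1 when E14.5 replaced E15.5, namely Foxc1, called higher (1.96). None of the 4 lower calls held there: Twist1 (0.13), Twist2 (0.19) and Tfap2b (0.24) turned positive without a call, as did the uncalled Prrx1 (0.54), Prrx2 (0.12) and Lmx1b (0.11), and Foxc2 was -1.26 (adjusted p = 0.0915). It was 2 when P7 replaced P14. For 2 months against E14.5 it was 5 with no minimum difference and 6 when E15.5 replaced E14.5, where Prrx1 (-1.76) and Tfap2b (-1.20) turned negative. For ageing it was 0 with an offset of 64 (Prrx1 -1.13, adjusted p = 0.054) and 0 with the 2-month arrays that carry identifiers 1A and 1B averaged (-1.38, adjusted p = 0.069). It was 2 with 2 months alone as the younger age, namely Prrx1 and Twist1. Between the layers, Prrx1 passed 4-fold after quantile normalization over 34 arrays (-2.14), a count of 1. The median r between the 8 genes was 0.778 over the earlier ages and 0.212 over the later ones.

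With no minimum difference, the count of all genes called went from 5282 to 10382 over the 12 ages, from 2550 to 7057 for E14.5 to P14, from 880 to 2576 for P28 to 2 years, from 1358 to 4737 for E15.5 against E14.5, from 674 to 2454 for P14 against E15.5, from 994 to 4144 for P28 against P14, from 2118 to 5893 for 2 months against E14.5 and from 88 to 536 for ageing. Ageing calls numbered 52 with an offset of 64, 57 without replicate 2 of 1 year, 53 without replicate 1 of 2 years and 288 with 2 months alone, and P14 calls numbered 1479 against E14.5. Quantile normalization shifted the median of all genes by -0.12 log2 units for P28 against P14. The cause of these changes was not tested, beyond the arrays and thresholds each setting removes.

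Arrays of the same replicate number did not deviate together on average (mean r of deviations -0.011 over 160 pairs, against 0.005 over 308 pairs of different numbers). No pairing by number was thus detected, although single pairs ranged from -0.435 to 0.4 and from -0.418 to 0.435. With the replicate number as a block the counts were unchanged, at 7, 5, 2, 5, 4, 4, 3 and 1, and 13 calls over the steps.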
